A study of Drosophila melanogaster with 15 samples.

Results

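The 6 genes described here carry histamine signalling between fly photoreceptors and their partners, namely Hdc, t (tan), e (ebony), CarT, ort and HisCl1. They were chosen by their FlyBase symbols for their known roles, by a rule that uses no measured value, though with earlier results of these data known. All 6 were found among the 17558 genes of the count table. Nuclear RNA was sequenced from heads of male Drosophila melanogaster of 5 ages, day 10, day 20, day 25, day 30 and day 40 after eclosion, to follow photoreceptor gene expression with age. All groups, which the labels call WT, carried the reporter P{w[+mC]=UAS-GFP-Msp300KASH}attP2 and the driver P{ry[+t7.2]=rh1-GAL4}3 in a w background with ry[506]. Age was the only difference between groups that the labels gave, and the libraries also differed in technical measures described below. The driver turns on a green fluorescent protein anchored to the nuclear envelope in photoreceptors R1 to R6, the outer cells of each ommatidium, and tagged nuclei were affinity-purified from pooled heads. The driver is also active outside the eye, in the antennae, so the purified nuclei are enriched for photoreceptors rather than pure. Each age had 3 libraries, except day 30, which had 2.

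Histamine is the transmitter by which fly photoreceptors signal light to the first optic neuropils. Photoreceptors make it with histidine decarboxylase, the product of Hdc, and release it onto histamine-gated chloride channels, which hyperpolarise their targets. Released histamine is taken up by glia, where Ebony joins it to beta-alanine to give carcinine. Carcinine returns to the photoreceptor through the transporter CarT, and Tan splits it there to release histamine again. Ort is the receptor of the lamina neurons that receive the outer photoreceptors' signal, and HisCl1 is a second receptor, known from the inner photoreceptors R7 and R8 and from lamina glia. Hdc, t and CarT are therefore genes of the photoreceptor itself, whereas e and ort are best known from its glial and neuronal partners.

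In the BDGP6.54 annotation all 6 genes are protein coding. Hdc (FBgn0005619) lies on the plus strand of 2R at 10237988 to 10246077. The gene t (FBgn0086367) lies on the minus strand of X at 9217655 to 9223257, and CarT (FBgn0032879) on the minus strand of 2L at 20727151 to 20730282. The other 3 genes are on 3R, with e (FBgn0000527) on the minus strand at 21229839 to 21237177, ort (FBgn0003011) on the plus strand at 19659748 to 19663672, and HisCl1 (FBgn0037950) on the plus strand at 11787176 to 11789393. Exons of HisCl1 share 101 bases with Sbf on the opposite strand, and exons of Hdc share 158 bases with lncRNA:CR45265 and 7 bases with CG12209, again on the opposite strand. Counting used strand. Sbf held 107 to 142 CPM (counts relative to the library total, on a scale common to all libraries), lncRNA:CR45265 had no counts in 13 of 14 libraries, and CG12209 stayed at or below 1.06 CPM.

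The 14 libraries held 6213255 to 19819118 counts assigned to genes, and 3 counts correspond to 0.151 to 0.483 CPM, a limit that covers counting error only. Photoreceptor markers were high, with ninaE, which encodes the Rh1 opsin, at 23905 to 51140 CPM in every library. The 11 outer photoreceptor markers listed summed to 83034 to 149646 CPM. Markers of other cells were present at lower levels, and some moved with age. The muscle list summed to 490 to 660 CPM at day 40 and 198 to 445 CPM at day 10, with Mlc2 alone of 4 called, as higher. The fat body list summed to 119 to 357 CPM at day 40 and 77.3 to 154 CPM at day 10. There Yp1 and Yp2 of 4 tested were called as higher between these ages, and neither was without day 40 replicate 3. The auditory and mechanosensory list summed to 122 to 152 CPM at day 40 and 145 to 159 CPM at day 10. Of its 6 genes tested, the age test called 1 as higher and 1 as lower, and 4 estimates were negative. There nompB averaged 38.7 CPM at day 40 and 6.40 CPM at day 10. The 5 inner photoreceptor markers summed to 5988 to 11144 CPM at day 40 and 4991 to 8948 CPM at day 10, with 0 called. The part of all these cells in the values of the histamine genes was not tested. The glial list summed to 651 to 956 CPM and the lamina and optic lobe list to 80.7 to 136 CPM. The pan-glial gene repo was detected in all libraries, whereas gcm, a determinant of embryonic glia, was at or near 0. Day 40 replicate 3 stood apart in clock genes, with tim at 4116 CPM against 338 to 629 CPM in the other 13 libraries and Clk at 94.5 CPM against 309 to 492 CPM. Values without it are given below for many of the results that it moves.

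Per length of exon, the photoreceptor genes ranked above the receptors and the glial enzyme. Over the 14 libraries t averaged 193.5 ± 57.2 CPM per kb of exon, CarT 175.7 ± 36.7, Hdc 77.4 ± 18.2, HisCl1 35.4 ± 7.52, e 10.6 ± 2.86 and ort 3.48 ± 0.83 CPM per kb (SD, n = 14 each). From Hdc downward the order was the same in all 14 libraries. The levels of t and CarT overlapped, with t ahead in 9 libraries and CarT ahead in 5, so these neighbours did not differ beyond their spread. With coding length in place of exon length t was ahead in 13 libraries. The ort gene was the most thinly counted, with 39 to 133 counts per library, whereas Hdc had 1484 to 5327 counts.

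**Figure D1:**
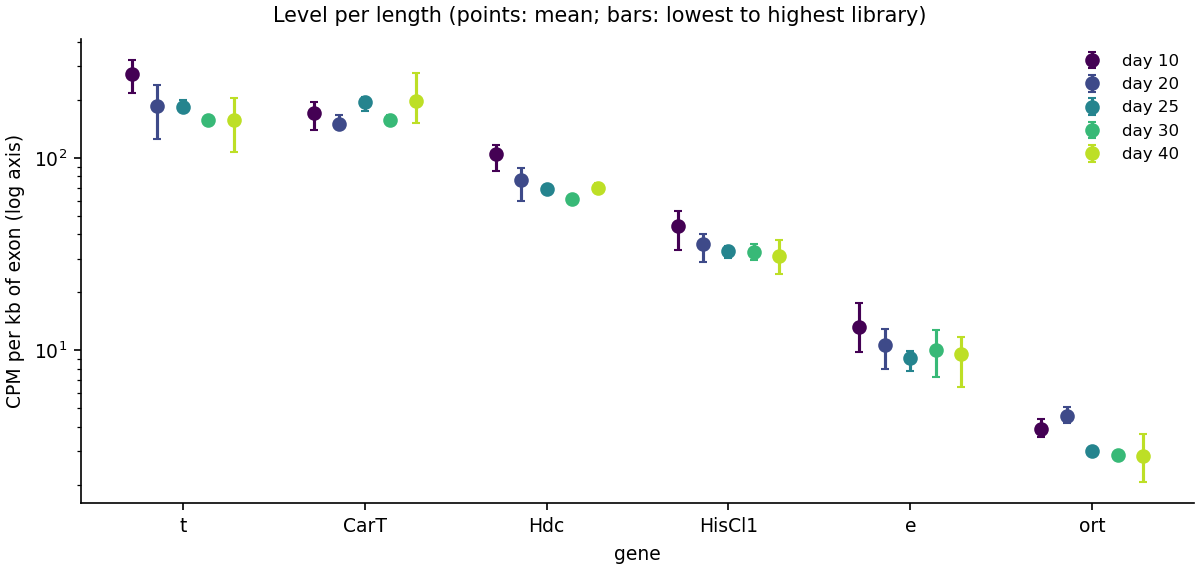
Level of each gene per kilobase of exon, on a log axis, at the 5 ages. Points are means of 3 libraries (2 at day 30) and bars run from the lowest to the highest library. The order from Hdc to ort held in every library, whereas t and CarT overlapped.

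Across the time course, 2 of the 6 genes changed with age. Hdc and t fell, and no histamine gene rose. The age test fitted a straight and a squared term in age to the counts with the quasi-likelihood test of edgeR, with Benjamini-Hochberg adjustment over 10678 genes, and gives its change as the fitted log2 difference between day 40 and day 10. Of all tested genes it called 8.35%, and 3.44% as lower. Among the 6 genes the median fitted log2 change was -0.56, against 0.0092 over all tested genes, and 5 of the 6 estimates were negative. In the same test the median was -0.66 for genes of other transmitters, with 7 of 8 estimates negative. The median was -0.52 for other ligand-gated chloride channels (8 of 8 negative) and -0.18 for other recycling and supply genes (8 of 11). A negative median was thus not particular to the histamine genes. Day 40 compared directly with day 10 gave the same 2 calls, Hdc and t, where 10.4% of all genes were called and 4.63% were lower.

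Hdc, the gene for histamine synthesis, lay between 229 and 337 CPM at all ages after day 10, against 327 to 447 CPM at day 10. Its day 10 libraries held 447, 431 and 327 CPM. It held 229, 337 and 313 CPM at day 20, then 263, 271 and 257 CPM at day 25, 229 and 237 CPM at day 30, and 282, 251 and 270 CPM at day 40. All day 25, day 30 and day 40 libraries were below all day 10 libraries, whereas day 20 replicate 2 was above the lowest day 10 library. Genes whose libraries all lay below day 10 made up 9.1% of those tested at day 25, 13.7% at day 30 and 12.9% at day 40. The mean was 267 ± 15.8 CPM at day 40 and 402 ± 65.4 CPM at day 10 (SD, n = 3 each). The log2 change was -0.59 ± 0.15 (SE), or 0.67 times the day 10 level, with an edgeR adjusted p of 0.018.

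In the age test Hdc had a fitted log2 change of -0.62 with an edgeR adjusted p of 0.0037, and it was called in 14 of 14 fits that each left out 1 library. The direct day 40 comparison was less firm. It lost the call without day 10 replicate 1 (adjusted p = 0.078), day 10 replicate 2 (adjusted p = 0.070) or day 40 replicate 2 (adjusted p = 0.075). Read pairs that fell on no annotated feature differed between ages without following their order. They numbered 60.7 to 103 per 100 gene counts at day 10, 64.2 to 84.6 at day 20, 67.6 to 76.0 at day 25, 112 in both libraries of day 30 and 42.4 to 56.4 at day 40. With this ratio as a covariate, the day 40 log2 change of Hdc was -0.12 (edgeR, adjusted p = 0.88), that of day 30 was -1.0 (adjusted p = 0.0016) and that of the age test -0.53 (adjusted p = 0.010). In bulk nuclear RNA of this kind, fewer nuclei of a type and less RNA per nucleus cannot be told apart.

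The gene t, which encodes the hydrolase that frees histamine from carcinine, showed the larger estimate but the wider spread. Its libraries were at 544, 637 and 426 CPM at day 10, 248, 388 and 469 CPM at day 20, and 341, 392 and 360.1 CPM at day 25. It was at 324 and 296 CPM at day 30, and at 404, 311 and 211 CPM at day 40. Day 10 lay above every later library except day 20 replicate 3. Such separation below day 10 was found in 9.1% of tested genes at day 25, 13.7% at day 30 and 12.9% at day 40. The mean was 308 ± 96.3 CPM at day 40 and 536 ± 106 CPM at day 10 (SD, n = 3 each). The log2 change was -0.80 ± 0.23 (SE), with an edgeR adjusted p of 0.032. The age test gave a fitted log2 change of -0.79 (edgeR, adjusted p = 0.032).

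The lowest value of t belonged to day 40 replicate 3, the library with the divergent clock genes. Without that library the direct change was -0.58 with an edgeR adjusted p of 0.13, past the threshold no longer, whereas the age test still called t at -0.59 (adjusted p = 0.037). The age test lost the call without day 10 replicate 1 (adjusted p = 0.098), day 10 replicate 2 (0.17), day 30 replicate 2 (0.055) or day 40 replicate 2 (0.061), and the direct test without day 10 replicate 1, day 10 replicate 2 or day 40 replicate 2, with adjusted p up to 0.13. With the ratio of such unannotated pairs as a covariate, the direct log2 change of t was -0.0092 (edgeR, adjusted p = 0.995), that of day 30 was -1.18 (adjusted p = 0.0046) and that of the age test -0.57 (adjusted p = 0.091). The age call of t was also lost with library size only (adjusted p = 0.082) and with a replicate block (adjusted p = 0.0501).

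**Figure D2:**
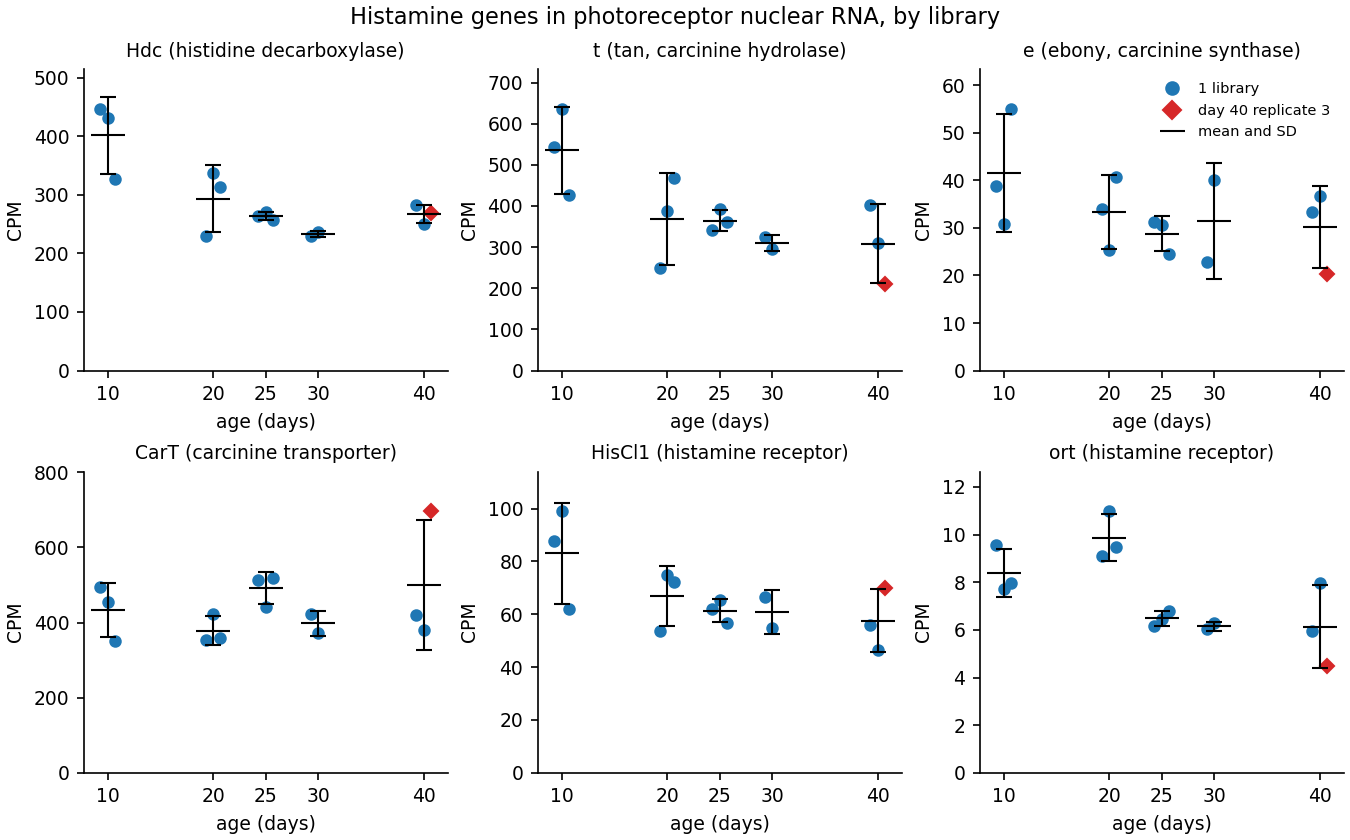
CPM of the 6 histamine genes in each of the 14 libraries, by age in days, with axes starting at 0. Points are libraries, the red diamond is day 40 replicate 3, and the black lines give the mean and SD. Hdc and t are highest at day 10, and CarT is highest in day 40 replicate 3, at 698 CPM.

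CarT, the transporter that brings carcinine into the photoreceptor, did not follow Hdc and t. It was at 494, 454 and 352 CPM at day 10, 354, 422 and 359.8 CPM at day 20, and 514, 442 and 520.0 CPM at day 25. It was at 422 and 373 CPM at day 30, and at 420.0, 382 and 698 CPM at day 40. Apart from the single high library at day 40, all values lay between 352 and 520.0 CPM, and every later age overlapped with day 10. The day 25 libraries lay above all day 20 and day 30 libraries, a difference that was not tested. That order was picked from the values, the share of all genes showing it was not counted, and no peak is read from it. The mean was 499.7 ± 173 CPM at day 40 and 434 ± 73.1 CPM at day 10 (SD, n = 3 each), a log2 difference of 0.21 with a 95% interval of -0.19 to 0.61 (edgeR, adjusted p = 0.55). The sign turned without day 40 replicate 3, to -0.11 (adjusted p = 0.74).

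The ratio of 2 genes within a library does not depend on scaling, since both share its scale factor. These ratios were chosen after the values were seen and are given as a description. Hdc to CarT was 0.672, 0.657 and 0.386 at day 40, against 0.905, 0.949 and 0.927 at day 10. The ratio of t to CarT was 0.961, 0.814 and 0.303 at day 40, against 1.10, 1.40 and 1.21 at day 10. In both ratios day 40 lay below day 10 without overlap, with or without day 40 replicate 3. Hdc to t was 0.699, 0.807 and 1.28 at day 40, against 0.823, 0.677 and 0.767 at day 10, with overlap.

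The glial enzyme gene e was low and variable. Its libraries were at 38.7, 30.7 and 55.1 CPM at day 10, 34.0, 25.3 and 40.8 CPM at day 20, and 31.2, 30.7 and 24.6 CPM at day 25. It was at 22.9 and 40.1 CPM at day 30, and at 33.3, 36.7 and 20.3 CPM at day 40. All ages overlapped. The mean was 30.1 ± 8.63 CPM at day 40 and 41.5 ± 12.4 CPM at day 10 (SD, n = 3 each), a log2 difference of -0.47 with a 95% interval of -1.02 to 0.08 (edgeR, adjusted p = 0.28). Without day 40 replicate 3, the lowest library, it was -0.25 (adjusted p = 0.66). The library highest in e, day 10 replicate 3, was also the highest in summed glial markers, at 956 CPM. Of 9 glial markers tested, alrm and nrv2 fell in the age test and 7 were not called, with a median fitted log2 change of -0.10. The summed glial level was 677 to 758 CPM at day 40 and 703 to 956 CPM at day 10, and its part in the values of e was not tested.

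Neither receptor gene was called by edgeR with the filter on low counts. HisCl1 was called as lower by DESeq2, with adjusted p of 0.041 in the age test and 0.049 for day 40 against day 10, and between day 40 and day 10 also by edgeR without the filter (adjusted p = 0.037). HisCl1 was at 87.8, 99.2 and 62.2 CPM at day 10, 53.8, 74.9 and 72.1 CPM at day 20, and 62.0, 65.3 and 56.6 CPM at day 25. It was at 66.7 and 55.0 CPM at day 30, and at 56.0, 46.6 and 70.1 CPM at day 40. Day 10 replicate 3 lay within the range of the later ages, whereas the other day 10 libraries lay above it. The log2 difference between day 40 and day 10 was -0.52 with a 95% interval of -0.92 to -0.13, with an unadjusted p of 0.013 and an edgeR adjusted p of 0.085. HisCl1 passed the threshold without day 10 replicate 3, with adjusted p of 0.021 in the age test and 0.019 in the direct test.

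The lamina receptor gene ort was at 9.57, 7.71 and 7.95 CPM at day 10, 9.11, 11.0 and 9.50 CPM at day 20, and 6.18, 6.45 and 6.81 CPM at day 25. It was at 6.02 and 6.29 CPM at day 30, and at 5.94, 7.97 and 4.50 CPM at day 40. All day 25 and day 30 libraries were below all day 10 libraries, and day 40 overlapped with day 10 through its replicate 2. The same separation below day 10 was found in 9.1% of tested genes at day 25 and 13.7% at day 30, and ort was called at neither age. The log2 difference between day 40 and day 10 was -0.46 with a 95% interval of -0.98 to 0.06 (edgeR, adjusted p = 0.26). Without day 40 replicate 3, the lowest library, it was -0.27 (adjusted p = 0.62). The largest difference of ort was with day 20, a log2 value of -0.69 ± 0.24 at day 40 (SE), with no overlap, an unadjusted p of 0.011 and an edgeR adjusted p of 0.19. Without day 40 replicate 3 that difference was -0.50, with an unadjusted edgeR p of 0.067 and an adjusted p of 0.51. Genes with all day 40 libraries below all day 20 libraries made up 8.89% of those tested. Markers of the lamina and optic lobe summed to 80.7 to 109 CPM at day 40 and 107 to 122 CPM at day 20, overlapping narrowly, and of 7 tested only bab1 was called, lower, in both the age test and the direct test against day 10, the age call being lost without day 40 replicate 2 or 3. Between day 40 and day 20, 1 of these 7 markers was called, as lower, and their median log2 change was -0.48. Without day 40 replicate 3 that comparison called 0 of the 7, with a median of -0.295. The part of these cells in the level of ort was not tested.

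The difference in Hdc was present in direction from day 20 onward. Its log2 change against day 10 was -0.45 ± 0.15 at day 20 (edgeR, adjusted p = 0.44), -0.61 ± 0.15 at day 25 (adjusted p = 0.057), -0.79 ± 0.17 at day 30 (adjusted p = 0.039) and -0.59 ± 0.15 at day 40 (SE in each). For t the values were -0.54 ± 0.22, -0.56 ± 0.23, -0.79 ± 0.26 and -0.80 ± 0.23 at the same ages. Between day 40 and day 20 the log2 difference was -0.13 for Hdc, with a 95% interval of -0.44 to 0.18, and -0.26 for t, with an interval of -0.73 to 0.22. All comparisons with day 10 share its 3 libraries, so they are not independent.

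At day 20 none of the 6 genes was called by edgeR or DESeq2, 2 had an unadjusted edgeR p under 0.05 (8.1% of all genes did), and 0.00937% of all genes were called. At day 25 the call count was also 0 by edgeR, with 3 genes at an unadjusted p under 0.05 (14.3% of all genes) and 1 called by DESeq2, and 0.974% of all genes were called. Leaving out day 40 replicate 3 put Hdc just past the threshold at day 25 (log2 change -0.61, edgeR adjusted p = 0.048). At day 30 Hdc alone was called, where 0.871% of all genes were called and 0.3% were lower. That call held in 5 of the 14 fits with a library left out and was lost without any 1 of day 10 replicates 1 and 2, the day 25 and day 30 replicates, or day 40 replicates 1 and 2, with adjusted p up to 0.25. With a day 30 replicate left out, the lone day 30 library is assumed to vary like the other ages. Between day 40 and day 20 none of the 6 was called by edgeR or DESeq2, 2 had an unadjusted p under 0.05 (CarT and ort, where 14.5% of all genes did), and 1.13% of all genes were called. Neither CarT nor ort stayed under that limit without day 40 replicate 3. Their log2 differences were then 0.081 for CarT and -0.50 for ort.

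**Figure D3:**
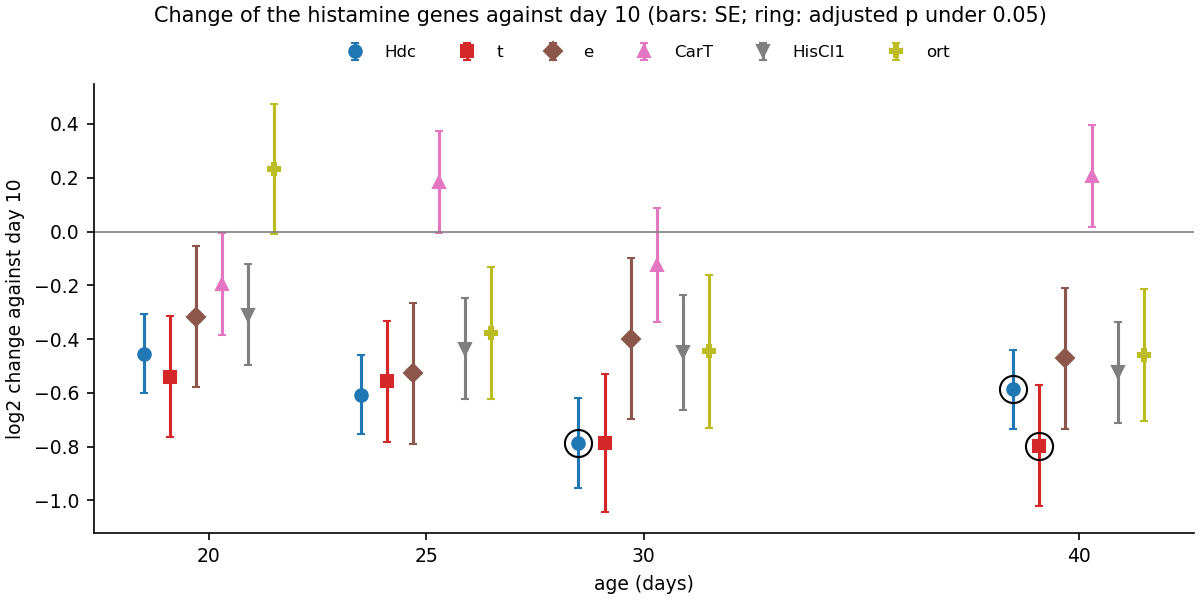
Log2 change of each gene against day 10 at days 20, 25, 30 and 40, from 1 edgeR fit of all ages, with bars giving the SE. Rings mark an adjusted p under 0.05, which only Hdc at days 30 and 40 and t at day 40 reached.

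Other genes of histamine supply and recycling were mixed. In the age test, Inx2 and lovit fell and CRMP rose among the 11 tested, and 8 were not called. The median fitted log2 change was -0.18, against 0.0092 over all tested genes. Inx2, a gap-junction innexin of glia, averaged 77.1 ± 10.1 CPM at day 40 and 119 ± 18.0 CPM at day 10 (SD, n = 3 each), with a fitted log2 change of -0.62 (edgeR, adjusted p = 0.0077), and was called in 14 of 14 fits with a library left out. The gene lovit, which encodes the transporter that loads histamine into photoreceptor vesicles, averaged 495 ± 52.8 CPM at day 40 and 884 ± 334 CPM at day 10. Its fitted log2 change was -0.94 with an edgeR adjusted p of 0.041, and the direct test gave -0.84 (adjusted p = 0.064). The age call held in 5 of 14 such fits and was lost without any 1 of the day 30 or day 40 replicates, or of replicates 1 and 2 of day 10 or day 25 (adjusted p = 0.062 without day 40 replicate 3).

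CRMP, which encodes an enzyme in the breakdown of pyrimidines to beta-alanine, was the gene that rose, counted over its 3 annotated transcripts together. It averaged 200.4 ± 60.6 CPM at day 40 and 119 ± 15.95 CPM at day 10 (SD, n = 3 each), with a fitted log2 change of 0.74 (edgeR, adjusted p = 0.042) that held in 7 of 14 fits with a library left out, and was lost without any 1 of the day 10 replicates, day 20 replicate 2, day 25 replicates 1 and 2, or day 30 replicate 1. In the direct test its log2 change was 0.75 (edgeR, adjusted p = 0.022), a call lost without day 10 replicate 1 or day 40 replicate 3. Without day 40 replicate 3 it was 0.48 (adjusted p = 0.13). The neighbouring enzymes were not called. Direct log2 differences were 0.62 for pyd3 (edgeR, adjusted p = 0.19) and -0.74 for su(r) (adjusted p = 0.11). The aspartate decarboxylase gene b, another source of beta-alanine, differed by -1.02 (adjusted p = 0.11), and by -0.56 without its lowest library, day 40 replicate 3 at 11.2 CPM (adjusted p = 0.22). The beta-alanine transporter gene BalaT differed by 0.27 (adjusted p = 0.699), and w was not read as the endogenous gene because the transgene carries a w marker.

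Ort and HisCl1 belong to the ligand-gated chloride channels, whose other members include the GABA receptor Rdl and the glutamate receptor GluClalpha. Of 10 other family members listed, 8 were tested, and pHCl-2 and CG6927 were too low. In the age test edgeR called 0 of the 8, with 5 at an unadjusted p under 0.05, as were 24.1% of all genes, and 1 called by DESeq2. In the direct test of day 40 against day 10, Grd fell, with a log2 change of -1.0 (edgeR, adjusted p = 0.042), a call that held in 6 of 14 fits with a library left out and was lost without any 1 of the day 10 replicates, day 20 replicate 3, day 25 replicates 1 and 3, or day 40 replicates 1 and 3 (adjusted p = 0.17 without day 40 replicate 3). All 8 direct estimates were negative, with a median of -0.50. Without day 40 replicate 3 CG7589 was at 0.061, the other 7 were negative, and the median was -0.43.

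Genes for making or packaging other transmitters were also measured in these nuclei. Of 8 tested, Gad1 and VGAT, both of GABA neurons, fell in the age test, ple rose, and 5 were not called. Gad1 encodes glutamate decarboxylase and averaged 54.0 ± 12.96 CPM at day 40 and 121 ± 41.6 CPM at day 10, with a fitted log2 change of -1.20 (edgeR, adjusted p = 0.0038). VGAT had a fitted log2 change of -0.79 (adjusted p = 0.030), lost without day 40 replicate 3 (adjusted p = 0.12) or day 40 replicate 1. The tyrosine hydroxylase gene ple averaged 107 ± 58.7 CPM at day 40 and 25.0 ± 5.40 CPM at day 10, a fitted log2 change of 2.03 (adjusted p = 0.00025), and 1.51 without day 40 replicate 3 (adjusted p = 0.0016). Gad1 and ple were called in all 14 fits with a library left out.

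**Figure D4:**
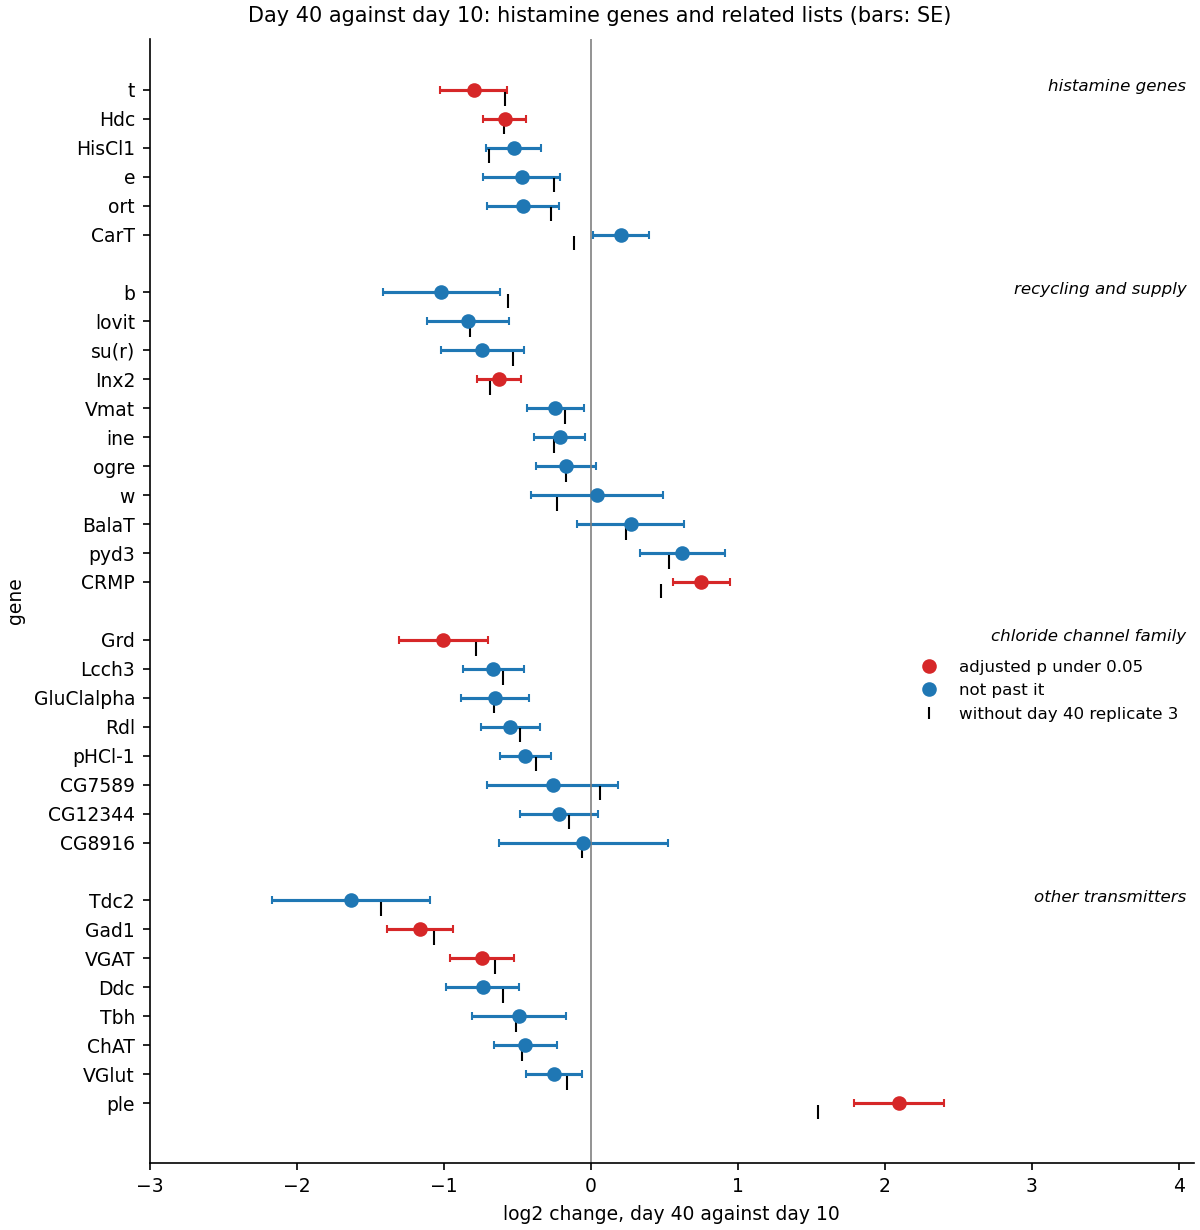
Log2 change between day 40 and day 10 for the 6 histamine genes and 3 related lists, with bars giving the SE. Red points passed an adjusted p of 0.05, and black ticks give the estimate without day 40 replicate 3, which turned the sign of CarT.

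The 11 outer photoreceptor markers, among them the opsin gene ninaE and the channel gene trp, gave no call in the age test by edgeR, with 3 at an unadjusted p under 0.05 and 2 called by DESeq2. Their median fitted log2 change was -0.10. The summed level of these markers was 102603 to 149646 CPM at day 40 and 83034 to 125810 CPM at day 10. Without day 40 replicate 3, which held the highest sum, the day 40 top was 105583 CPM and the median was -0.25. The direct log2 difference of ninaE was 0.46 (edgeR, adjusted p = 0.17), and 0.18 without that library (adjusted p = 0.65), and that of the transcription factor gene gl was -0.44 (adjusted p = 0.059). Whether Hdc or t differed from these markers in their course was not tested.

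Among themselves the 6 genes did not vary as a block. Over the 14 libraries, which share age as well as library effects, Pearson's r of log2 CPM was 0.82 between Hdc and t, 0.83 between Hdc and HisCl1 and 0.64 between t and HisCl1. It was -0.70 between e and CarT and -0.57 between CarT and ort, and 0.12 between Hdc and CarT. Among 5777 other genes of at least 10 CPM, the most like Hdc were Ekar (r = 0.97), CG6282 (0.95) and CG6966 (0.95), and the most like t were Pkc53E (0.96), CG15760 (0.95) and app (0.95). Those most like HisCl1 were rdgC (0.92), fdl (0.91) and stj (0.88). CarT was most like CG33116 (0.92), crb (0.91) and CG3702 (0.90), e most like Jhbp13 (0.91), Jheh2 (0.88) and tok (0.87), and ort most like Nlg4 (0.84), Strip (0.84) and CG30392 (0.83). These correlations describe 14 libraries of 5 ages and carry no test.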

How the data were processed

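Libraries were made by the authors with the NuGEN Ovation Drosophila kit with depletion of ribosomal RNA. The authors trimmed reads with Trimmomatic, aligned them with TopHat to BDGP6 and counted them per gene with HTSeq over exons, by strand and without multiply aligned reads. The authors deposited raw counts per gene, a filtered table of the same counts and CPM values of the filtered table, and the last of these was not used. For columns numbered 1 or 2 the labels fix the age but not the sample, so replicate numbers follow the column names. Day 30 replicate 3, which the authors set aside because it mapped poorly, entered no test, so 14 of 15 libraries were used.

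Quasi-likelihood F tests were run on the raw counts (edgeR 4.0.16, R 4.3.3) with TMM scaling, for genes with CPM over 1 in at least 3 libraries (10678 genes, all 6 histamine genes among them), and p-values were adjusted by Benjamini-Hochberg over all of them at 0.05. HTSeq's summary lines stayed out of library sizes. CPM in the text uses TMM-scaled library sizes, and log2 CPM a prior count of 2. Contrasts came from a fit with a mean per age. DESeq2 1.42.0 was an alternative. Symbols, positions and lengths came from Ensembl release 115 (BDGP6.54), which matched 17252 of 17558 genes and 100 of 103 listed symbols. The tests were tested on simulated data.

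The 6 genes are named whatever their result. From each related list, genes past the threshold in the age test or in day 40 against day 10, or else the most abundant, could be named (pyd3, su(r), b, BalaT, w, gl, trp and repo are given beyond that), and the 3 genes most like each histamine gene were those with the highest Pearson r. The genes and lists were chosen with earlier results of these data known. The labels call the replicates biological without saying how they were kept apart, so p-values measure the spread between these samples. The same-numbered libraries of different ages did not deviate together, so ages were not paired by number. Intervals cover the model's error only.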

Additional observations from a re-analysis of the deposited data

Results flagged for a closer look

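The discarded day 30 replicate 3 held 518520 gene counts, and 3 counts correspond to 5.79 CPM there. It nevertheless showed 5 of the 6 histamine genes above that limit. In this library, which enters no comparison, Hdc was at 255 CPM (132 counts, exact binomial 95% interval 213 to 302) and t at 361 CPM. CarT was at 378 CPM, HisCl1 at 63.6 CPM and e at 28.9 CPM (15 counts, 16.2 to 47.7). All these values are unscaled by TMM. The gene ort had 2 counts, which is under the limit. The test for a single outlying value within an age needs at least 4 libraries and was not run.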

How the results depend on the processing

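Hdc and t kept their negative sign in the age test and in day 40 against day 10 under all alternatives run, with log2 values of -0.74 to -0.48 and -1.0 to -0.57 in the age test. Hdc was called there in 9 of 9 alternatives other than left-out libraries and t in 6 of 9. Signs turned for CarT at day 30 against day 10 with library size only (0.089), for lovit at day 40 against day 10 with the no-feature ratio as a covariate (0.36), for day 40 against day 20 with that covariate in Hdc (0.24), t (0.37) and HisCl1 (0.098), for CarT without day 40 replicate 3 (-0.071 in the age test and -0.11 against day 10, where leaving out single libraries gave up to 0.37 and 0.38), and for e between day 40 and day 20 without day 20 replicate 3 (0.015) or day 40 replicate 3 (0.067), with a lowest value of -0.32. The causes were not tested. Of the 6 histamine genes, library size only called 1 in the age test, 0 at day 30 and 1 at day 40, all against day 10, DESeq2 called 1 at day 25 and 2 at day 30, no filter on low counts called 2 at day 25, 2 at day 30 and 3 at day 40, and the authors' filtered genes called 1 at day 25. With the no-feature ratio as a covariate 1 was called in the age test, 2 at day 30 and 0 at day 40. With day 30 replicate 3 included 1 was called at day 25, and with only the 2 ages compared 0 were called at day 30 and 1 at day 40. The replicate numbers did not pair the libraries (same-numbered libraries of different ages had a median r of -0.04, and 2 of 26 pairs were over 0.1). With a replicate block, 1 of the 6 was called in the age test, 0 at day 30 and 1 at day 40, and over all genes 4 were called at day 20, 51 at day 25, 36 at day 30 and 73 between day 40 and day 20. Over all genes, the age test called 892, and 1486 by DESeq2 and 436 with the no-feature covariate. Day 20 called 1, and 2 with DESeq2 size factors, 10 with library size only, 49 by DESeq2, 128 without a filter, 2 in the authors' genes, 7 with the covariate, 7 with day 30 replicate 3 and 0 with only 2 ages. Day 25 called 104, and 198 with library size only, 397 by DESeq2 and 460 without a filter. Day 30 called 93, and 180 with library size only, 376 by DESeq2, 403 without a filter, 499 with the covariate, 145 with day 30 replicate 3 and 30 with only 2 ages. Day 40 called 1109 against day 10, and 197 with the covariate. Against day 20 it called 121, and 371 by DESeq2, 494 without a filter and 45 with only 2 ages. With each library left out in turn, the age test called 472 to 1134 genes, day 20 0 to 27, day 25 19 to 252, day 30 9 to 209 and day 40 542 to 1252 against day 10 and 50 to 232 against day 20. The same fits called 1 to 3 of the 6 histamine genes in the age test, 0 at day 20, 0 to 1 at day 25, 0 to 1 at day 30, 0 to 3 at day 40 and 0 between day 40 and day 20. Library size only moved the median of all genes by 0.11 on the log2 scale at day 40, and the age test then split into 707 higher and 182 lower genes, against 525 and 367 with TMM. Depth limits ort most, with at most 133 counts in a library.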
